A study of Sus scrofa with 36 samples.

Results

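The nuclear genes of the oxidative phosphorylation subunits were examined in the adrenal glands of 36 pigs. Members were the array probes whose gene name began with a subunit family name (NDUFA, NDUFB, NDUFC, NDUFS or NDUFV with a number, UQCR, COX4 to COX8, ATP5) or was SDHA, SDHB, SDHC or SDHD. This gave 76 names of the 45222 gene names on the array (names that are only identifiers included). For each name the probe with the highest mean level over the 36 arrays of the deposited table stood for the gene. COX8H had no probe in that table and was not tested. The other 75 names were all tested, and their probes were well above background on all 36 arrays and saturated on 0.

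Oxidative phosphorylation takes place in the inner mitochondrial membrane. Complexes I and II feed electrons from NADH and succinate to ubiquinone, complexes III and IV pass them on to oxygen, and complex V, the ATP synthase, uses the resulting proton gradient to make ATP. In the adrenal cortex the same mitochondria carry out the first and last steps of cortisol and aldosterone synthesis, so the organelle serves both energy supply and steroid output. The tested names comprised 32 of complex I (NADH dehydrogenase), 3 of complex II (succinate dehydrogenase), 8 of complex III (cytochrome bc1), 15 of complex IV (cytochrome c oxidase) and 15 of complex V. NDUFA4 and its relative NDUFA4L2 were placed in complex IV, where the NDUFA4 protein is known to sit. The remaining 2 names, ATP5SL and COX4NB, match the name pattern but do not encode subunits, and COX6B and COX6B1 were kept as the separate names that the files give them, although they may be 1 gene counted under both.

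The pigs were castrated males of the Large White (LW) breed, the Creole (CR) breed and their F1 cross, which entered the trial at 11 weeks of age. They were killed either at thermoneutrality (TN, 24 °C) or after up to 5 days of heat stress (HS), with 6 pigs in each of the 6 breed by temperature groups. The labels give 30 °C for the HS pigs, and the series description gives 32 °C. RNA of the whole adrenal gland was hybridised to a 1-colour array, 1 array for each pig. TN and HS pigs were not killed on the same days, so slaughter day and temperature cannot be told apart. Pigs of a group shared 2 pens and some were littermates, but pen and litter are not in the labels and were not fitted, so the p-values measure the spread between these pigs.

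Values are log2 of the quantile-normalized spot intensity, and differences are on the same log2 scale. They were fitted with limma over all 45943 probes kept, with Benjamini-Hochberg adjustment, and a member is called when its adjusted p is under 0.05. All 10 listed markers of the steroidogenic cortex and all 7 of the chromaffin medulla that the array names were well above background on every array. Between 42436 and 48060 probes of an array were well above background. The arrays lay on 5 slides, the first with 4 arrays and the others with 8, and each of the latter held all 6 groups. In whole glands, fewer cells of a type and less RNA per cell cannot be told apart.

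Heat stress was compared with thermoneutrality to ask whether the subunit genes respond to a few days of heat. Of the 75 members, 0 were called by limma, while 0.886% of all probes were. At an unadjusted p under 0.05 there were 3 members, 1 higher and 2 lower in HS, or 4% of the members against 13.4% of all probes. The members' differences lay between -0.12 (ATP5J) and 0.15 (COX7A1), and their median was -0.02 against 0 over all probes. The 95% interval lay within 0.25 of 0 for 73 members and within 0.5 for all 75. The widest interval, of half-width 0.22, belonged to COX5A.

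By sign alone, 51 of the 75 differences were below 0 and 24 above it, while 50% of all probes were above 0. Members varied together within groups (mean correlation of pairs 0.18), so these signs are not independent counts. In complex I, 23 of 32 were below 0, with a median of -0.03. In complex V, 11 of 15 were below 0, with a median of -0.01. Complex IV was even, with 7 above and 8 below and a median of 0, while complex II (1 above, 2 below) and complex III (3 above, 5 below) had medians of -0.01 and -0.02. Listed medulla markers were below 0 for 7 of 7 (0 called, median -0.15) and cortex markers for 9 of 10 (1 called, NR5A1, median -0.07), and their part in the members' signs was not tested. The plot of the HS and TN difference shows 74 of the 75 members with their intervals.

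**Figure D1:**
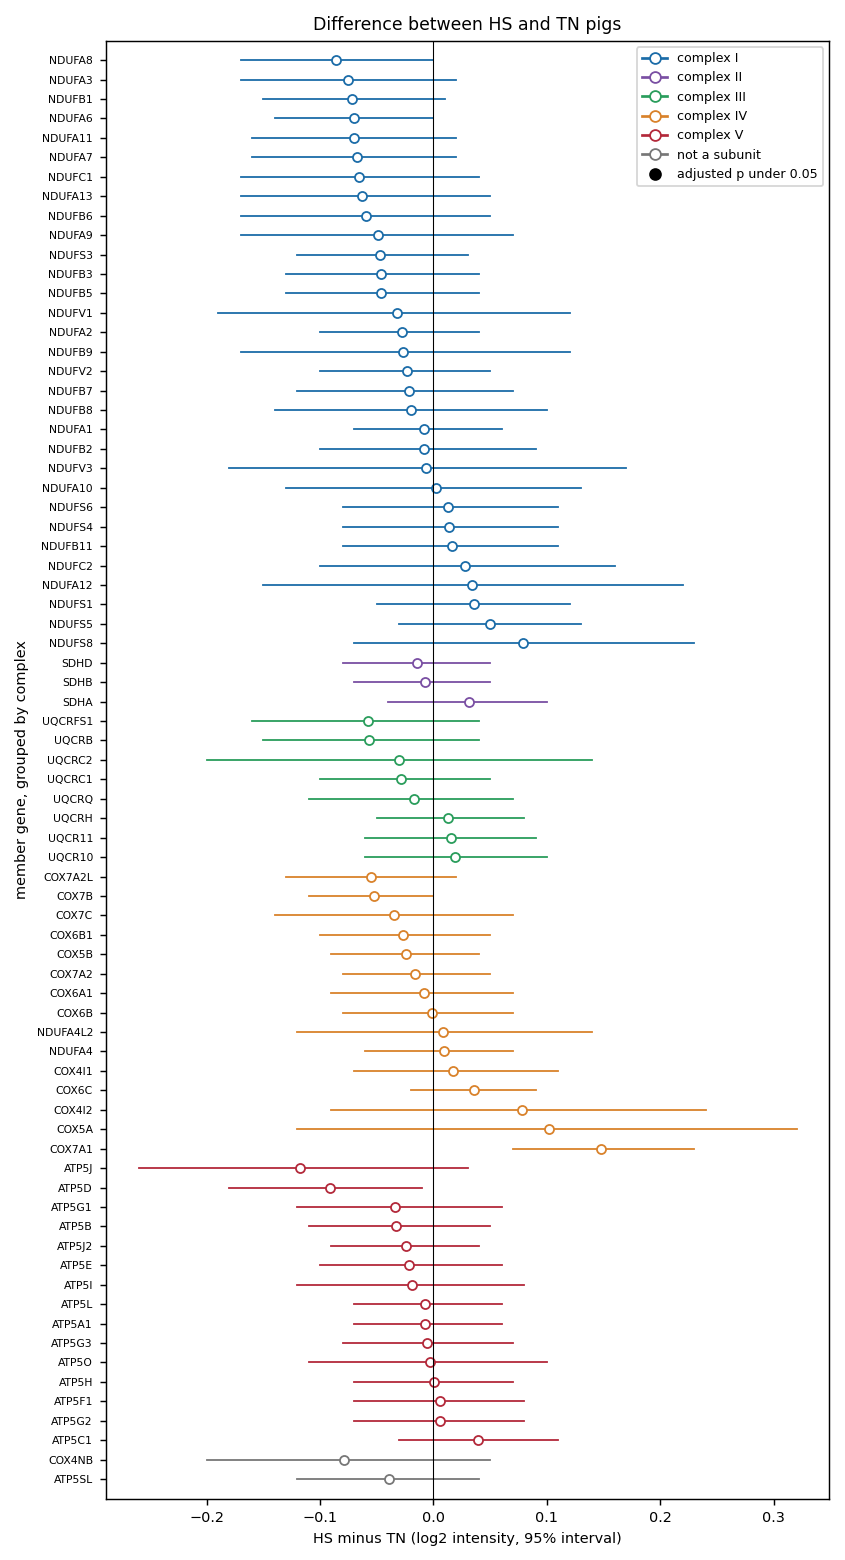
Difference between HS and TN pigs (x axis, log2 intensity) for 74 of the 75 members (y axis, grouped by complex), with 18 pigs in each condition. Circles are fitted differences and bars 95% intervals; all circles are open because 0 members were called, and COX7A1 at 0.15 stands farthest to the right.

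COX7A1, the heart and skeletal muscle form of cytochrome c oxidase subunit VIIa, had the lowest p of all members. Its level was 14.64 at the lowest, 14.87 at the median and 15.02 at the highest in TN pigs, and 14.74, 15.04 and 15.18 in HS pigs. The HS range was shifted upwards but the groups overlapped, and 15 of 18 HS pigs lay above the TN mean of their own breed. The difference was 0.15 (SE 0.04; limma, Benjamini-Hochberg adjusted p = 0.054), which did not pass the threshold. It was 0.18 in Creole, 0.16 in LW and 0.10 in F1 pigs, and 0.13, 0.18, 0.20 and 0.15 within the 4 slides that held all groups.

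The COX7A1 call turned on the processing. Its adjusted p was under 0.05 in 10 of 50 alternatives, 5 of them other ways of processing and 5 of them the omission of a single pig, and ranged from 0.0217 to 0.287 over all 50. The other COX7A1 probes gave 0.11 (limma, Benjamini-Hochberg adjusted p = 0.155) and 0.10 (adjusted p = 0.3), and the former overlaps the chosen probe by 31 bases. The gene lies on chromosome 6, 45519225 to 45520721 (RefSeq, Sscrofa11.1). Of the listed striated muscle markers 4 were tested. All 4 were above 0 in HS, 0 were called by limma and 1 (ACTA1, 0.15) had an unadjusted p under 0.05, with a median of 0.10. The highest values of MYH7 (12.6), CKM (13.38) and TNNT3 (7.05) were those of F1 HS pigs, and the CKM median was 12.51 in TN and 12.48 in HS pigs. Their summed level ran from 14.32 to 14.93 in TN and from 14.42 to 15.3 in HS pigs, and its part in the COX7A1 value was not tested.

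The remaining members with the lowest p values in each direction had small differences. Above 0 were COX6C, a small structural subunit of complex IV, at 0.04 (limma, Benjamini-Hochberg adjusted p = 0.6), NDUFS5, an accessory subunit of complex I, at 0.05 (adjusted p = 0.613), and ATP5C1, the gamma subunit of the ATP synthase stalk, at 0.04 (adjusted p = 0.669). Below 0 were ATP5D, the delta subunit of the same stalk, and NDUFA8, an accessory subunit of complex I, each at -0.09 (adjusted p = 0.315 and 0.348). NDUFA6 (-0.07, adjusted p = 0.383) and the complex IV subunit COX7B (-0.05, adjusted p = 0.414) followed. ATP5D ran from 13.19 through a median of 13.35 to 13.49 in TN pigs, and from 12.96 through 13.24 to 13.49 in HS pigs. The groups shared their upper end, and only the HS group reached below 13.19.

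Within each breed the heat comparison again called 0 members by limma. In Creole pigs 1 member had an unadjusted p under 0.05 (COX7A1), against 4.8% of all probes, of which 0 were called. In LW pigs 3 members did, against 6.27% of all probes with 0.0109% called. In F1 pigs 1 member did (ATP5J, -0.26, adjusted p = 0.372), against 12.2% of all probes, of which 0 were called. The median member difference was 0 in Creole, -0.04 in LW and -0.01 in F1 pigs. In LW pigs 53 of 75 members were below 0, among them 25 of the 32 of complex I, while 49.2% of all probes were above 0.

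The test of a different response between breeds, an F test of the breed by temperature terms in limma, called 0 members and 0 of all probes. At an unadjusted p under 0.05 it held 0 members, against 4.21% of all probes. The lowest member p was that of NDUFB11, an accessory subunit of complex I, with HS minus TN at 0.04 in Creole, -0.13 in LW and 0.14 in F1 pigs (limma, Benjamini-Hochberg adjusted p = 0.982). ATP5F1, a peripheral stalk subunit of the ATP synthase, followed with 0.04, -0.10 and 0.08 in the same order. ATP5L, a membrane subunit of complex V, gave 0.05, 0.01 and -0.09, and NDUFA3 of complex I gave -0.02, -0.19 and -0.01. None of these passed the test of a difference between breeds.

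To view the complexes pig by pig, each member was centred on its mean over the 36 pigs and the median over the members of a complex was taken in each pig. Over all 75 members these medians stayed between -0.13 and 0.11. The lowest group median was that of LW HS pigs (-0.06, range -0.10 to 0.06), and LW TN pigs gave 0.02 (range -0.13 to 0.08). The group medians of the Creole and F1 pigs lay between 0 and 0.02. The slides also differed, with medians of 0.05, 0.05, -0.04, -0.02 and 0.01 on slides 1 to 5, and LW TN had 2 pigs on slide 1, where LW HS had 0. LW HS had 4 pigs on slides 3 and 4, where LW TN had 2, and the part of the slides in these medians was not tested. For complex I the LW HS median was -0.08 (range -0.11 to 0.09) and the LW TN median 0.03 (range -0.15 to 0.10), so the LW HS pigs lay within the LW TN range.

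**Figure D2:**
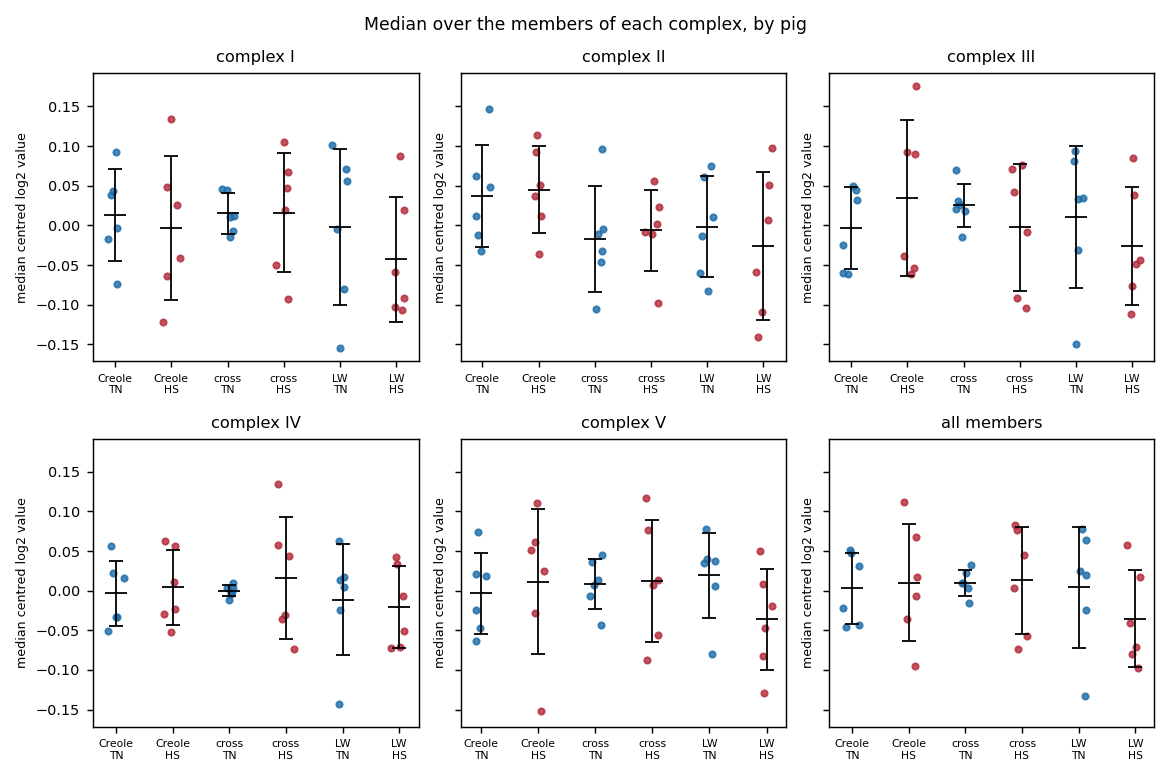
Median centred level of the members of each complex (y axis, log2 intensity, centred on the mean over 36 pigs) in every pig, in a panel for each complex I to V and one for all members, with 6 pigs in each of the 6 breed by temperature groups (x axis; cross, F1 pigs; blue, TN; red, HS). Points are pigs, long lines group means and bars the SD; the groups overlap in each complex, and the lowest complex I median, -0.15, is an LW TN pig.

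LW was compared with Creole to ask how the parental breeds differ, with 12 pigs each over both temperatures. Limma called 9 of the 75 members, 6 higher and 3 lower in LW. This is 12% of the members against 11.3% of all probes (5.89% higher, 5.38% lower), so the share of called members was close to that of the array. At an unadjusted p under 0.05 there were 19 members, 25.3% against 24.2% of all probes, of which 7 were higher and 12 lower. Of all 75 differences 52 were below 0, while 50% of all probes were above 0. The members' median was -0.03 against 0 over all probes, and their differences ran from -0.42 (COX5A) to 0.38 (NDUFA4L2). The F test over the 3 breeds called 6 members (COX4I1, COX4I2, NDUFA4L2, NDUFA9, NDUFV3 and SDHA), 8% against 10.4% of all probes, and 14 had an unadjusted p under 0.05, 18.7% against 24.5%. The count called was 3 to 9 under other processing and 3 to 6 with 1 pig left out. With 1 slide left out it was 2 to 5, while 4.36% to 8.16% of all probes were called.

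The called members were spread over 4 complexes. Complex I had 3 higher and 0 lower of 32, complex II 1 lower of 3, complex IV 2 higher and 2 lower of 15, and complex V 1 higher of 15. Complex III had 0 called of 8, with 0 at an unadjusted p under 0.05. The medians were -0.04 for complex I, -0.06 for complex II, -0.02 for complex III, -0.01 for complex IV and -0.03 for complex V. These counts depended on the slides. Leaving out slide 1, 2, 3, 4 or 5 left 5, 3, 1, 5 and 4 called members, while 9.02%, 7.27%, 5.57%, 8.17% and 9.24% of all probes were called, and NDUFA4L2 was called in all 5. The plot of the LW and Creole difference shows the called members as filled circles.

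**Figure D3:**
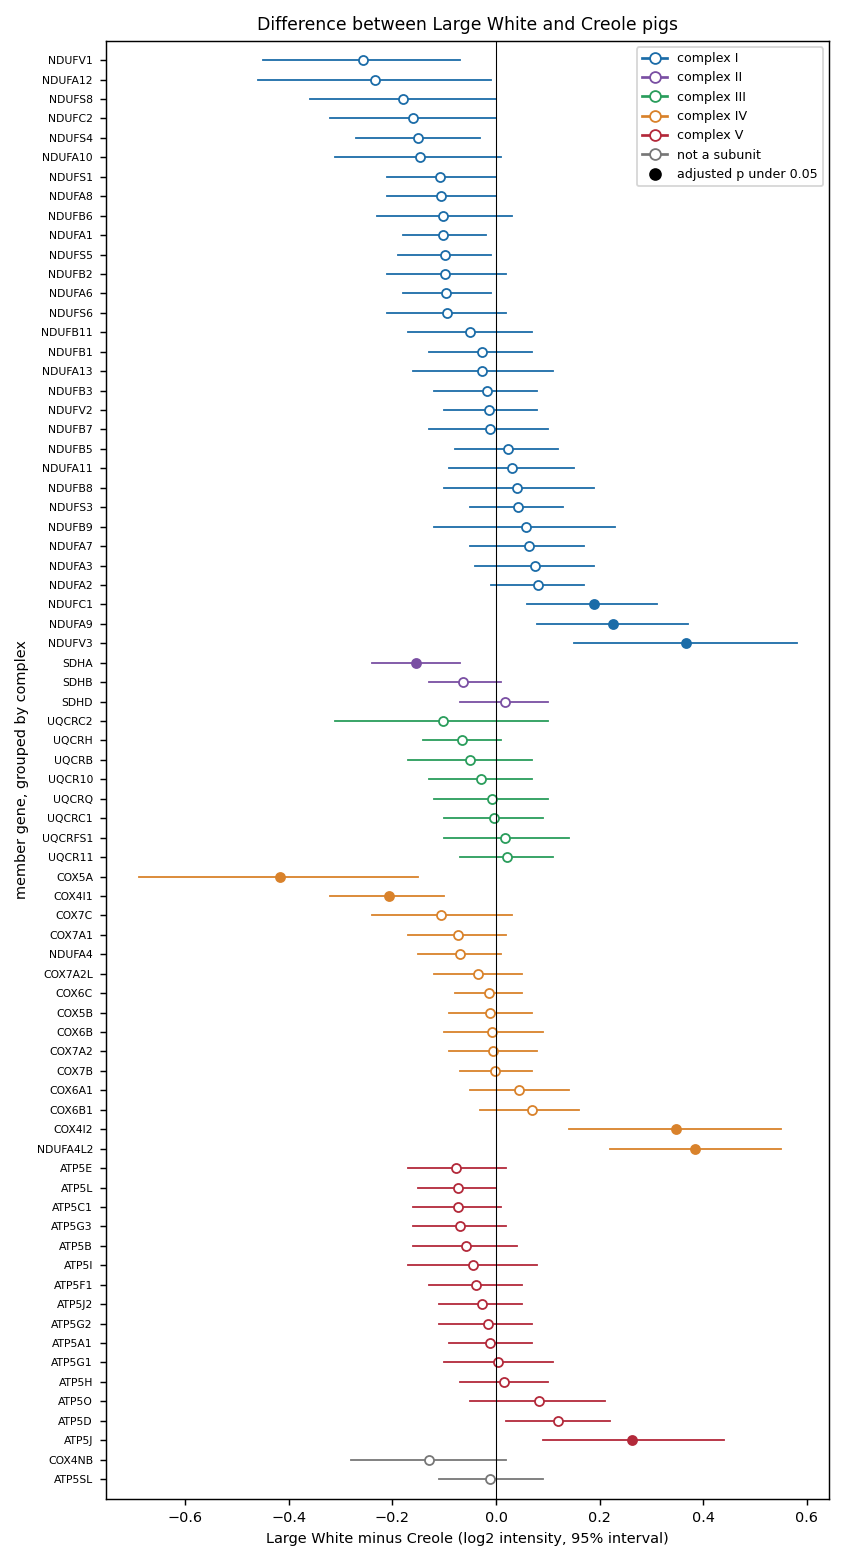
Difference between LW and Creole pigs (x axis, log2 intensity) for 74 of the 75 members (y axis, grouped by complex), with 12 pigs in each breed and 95% intervals as bars. The 9 filled circles have an adjusted p under 0.05; NDUFA4L2 at 0.38 and COX5A at -0.42 are the extremes.

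The probes behind these calls are 60 bases long, and the first 30 bases of each are given 5′ to 3′ as the array files hold them, because the named values are values of these sequences. Capitals mark the longest run, of at least 8 bases, that another tested probe of the same gene also holds. COX7A1 is shown for the heat comparison above.
NDUFA4L2: cctgctcccctcTGTCCCCCGGGATCAAAC
COX4I2: ttctttggattcacaggtctgatgatttgg
NDUFV3: tcaggaaggaatgaaaaggaacggccaccg
ATP5J: gccgtcgaaaaaccacagtcctgaagaaat
NDUFA9: gccacctatgttagagcattctgtacatat
NDUFC1: atgtagtgattataggagttcctttggatt
COX4I1: agtcctcactcttcacgacgcttccatgtg
SDHA: GCCTTTGTCCCTGCTTCGTTCTTGTGAAAT
COX5A: cgttgagtaccaaactgtgtatgtaacttg
COX7A1: AGTCTGCAGGACCTCAACAAGCATCAATAA
NDUFC1 is the only one of the 9 called members whose probe carries an identifier found among the pig RefSeq transcripts, as 16 of the 75 members do. The other probes are named as the array files name them.

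In complex IV, the 4 called members included both forms of subunit IV, and they differed in opposite directions. Each form has 1 probe, with a mean level of 10.07 for COX4I2 and 10.32 for COX4I1. The other tested members of complex IV lay between 13.29 and 17.33, and how well the 2 probes report their transcripts was not tested. COX4I2, the form known for its abundance in lung and its induction at low oxygen, was higher in LW pigs. Its level ran from 9.6 through a median of 9.79 to 10.26 in Creole pigs, and from 9.46 through 10.25 to 10.54 in LW pigs. The difference was 0.35 (SE 0.10; limma, Benjamini-Hochberg adjusted p = 0.0192), and 11 of 12 LW pigs lay above the Creole mean. The lowest of all 24 values was an LW TN pig at 9.46, which stood apart from the other LW TN pigs (10.24 to 10.29). The LW HS pigs began at 10.05, above the Creole median but below the highest Creole pig. Within the 4 slides the difference was 0.49, 0.25, 0.17 and 0.36, and the call was lost in 4 of 5 omissions of a slide (adjusted p up to 0.0975).

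COX4I1, the form that most tissues use, was lower in LW pigs. It ran from 10.26 through 10.41 to 10.7 in Creole pigs and from 10.03 through 10.23 to 10.44 in LW pigs. The difference was -0.21 (SE 0.05; limma, Benjamini-Hochberg adjusted p = 0.0103), and 9 of 12 LW pigs lay below every Creole pig but the ranges met between 10.26 and 10.44. Within slides it was 0.01, -0.21, -0.27 and -0.18, and the call was lost in 2 of 5 omissions of a slide (adjusted p up to 0.0676). In F1 pigs COX4I1 had a median of 10.32 (10.14 to 10.56) and COX4I2 one of 10.18 (9.63 to 10.63). Both F1 medians lay between those of the parents, but the COX4I2 mean was 10.22 in F1, 10.17 in LW and 9.82 in Creole pigs.

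NDUFA4L2, a relative of NDUFA4 that is known to be induced at low oxygen, had the lowest adjusted p of the members. It ran from 12.73 through 13.02 to 13.34 in Creole pigs and from 12.99 through 13.48 to 13.66 in LW pigs. The difference was 0.38 (SE 0.08; limma, Benjamini-Hochberg adjusted p = 0.00127). All but 1 of the 12 LW pigs lay above the Creole mean, and 9 lay above every Creole pig. It was called in all 50 alternatives, and the difference was 0.55, 0.22, 0.36 and 0.35 within slides. A further probe that shares 48 bases gave 0.48 (adjusted p = 0.0231), and the remaining one gave 0.31 (adjusted p = 0.165). The gene lies on chromosome 5, 22540482 to 22548418. F1 pigs had a median of 13.43 (13.01 to 13.82), close to that of LW pigs.

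COX5A, the Va subunit of cytochrome c oxidase, was lower in LW pigs by a value that differed widely between slides. It ran from 13.43 through 13.95 to 14.08 in Creole pigs and from 12.63 through 13.6 to 14.02 in LW pigs. The difference was -0.42 (SE 0.13; limma, Benjamini-Hochberg adjusted p = 0.0372), with 4 LW pigs below every Creole pig and the rest within the Creole range. Within slides it was -1.28, -0.27, 0.19 and -0.41, so its sign changed. Without slide 2 it was -0.23 (limma, Benjamini-Hochberg adjusted p = 0.259) and without slide 4 it was -0.60 (adjusted p = 0.00559). COX5A also had the largest spread within groups of all members (SD 0.349).

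In complex II, SDHA, the flavoprotein that oxidises succinate, was lower in LW pigs. It ran from 17 through 17.14 to 17.31 in Creole pigs and from 16.84 through 16.98 to 17.18 in LW pigs. The difference was -0.15 (SE 0.04; limma, Benjamini-Hochberg adjusted p = 0.0108), and 7 of 12 LW pigs lay below every Creole pig, though the ranges overlapped. It was below 0 within all 4 slides (-0.09, -0.15, -0.18 and -0.16), but the call was lost in 3 of 5 omissions of a slide (adjusted p up to 0.0712). All 5 other SDHA probes were also below 0, between -0.38 and -0.06, and 3 of them were called. The called probe at -0.13 shares 58 bases with the chosen one, so it measures nearly the same sequence. The gene lies on chromosome 16, 79838442 to 79862956. F1 pigs had a median of 17.03 (16.95 to 17.19). SDHB and SDHD, the iron-sulphur and a membrane anchor subunit, were not called.

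In complex I the 3 called members were accessory subunits and all were higher in LW pigs. Of the 32 members of complex I, however, 21 were below 0. At an unadjusted p under 0.05 there were 12, most of them below 0. NDUFV3, a small subunit of the NADH-binding part, ran from 11 through 11.48 to 11.9 in Creole pigs and from 11.33 through 11.84 to 12.15 in LW pigs. The difference was 0.37 (SE 0.11; limma, Benjamini-Hochberg adjusted p = 0.0215), with 11 of 12 LW pigs above the Creole mean but only 4 above every Creole pig. Within slides it was 0.57, 0.18, 0.18 and 0.50, and the call was lost in 4 of 5 omissions of a slide (adjusted p up to 0.0847). The gene lies on chromosome 13, 206111337 to 206123987. F1 pigs had a median of 11.8 (11.31 to 12.17).

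NDUFA9, a subunit of the matrix arm near the ubiquinone site, was 0.23 higher in LW pigs (SE 0.07; limma, Benjamini-Hochberg adjusted p = 0.0393). It ran from 13.63 through 13.96 to 14.24 in Creole pigs and from 13.82 through 14.17 to 14.42 in LW pigs. Only 2 LW pigs lay above every Creole pig, though 10 of 12 exceeded the Creole mean. Within slides it was 0.16, 0.07, 0.13 and 0.27. NDUFA9 was called in 31 of 50 alternatives and in 0 of the 5 that left out a slide (limma, Benjamini-Hochberg adjusted p = 0.053 to 0.156). NDUFC1, a small membrane arm subunit, was 0.19 higher (SE 0.06; adjusted p = 0.0388), with a range from 13.15 through 13.52 to 13.66 in Creole and from 13.47 through 13.67 to 13.88 in LW pigs. The breeds overlapped between 13.47 and 13.66, and 6 LW pigs lay above every Creole pig. Its second probe, which shares at most 7 bases in a row with the first, gave 0.20 (adjusted p = 0.0382). The NDUFC1 difference was 0.27, 0.11, 0 and 0.19 within slides, and it was called in 35 of 50 alternatives. NDUFA9 lies on chromosome 5, 65760078 to 65788703, and NDUFC1 on chromosome 8, 87695273 to 87700024.

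Of the complex I members with the lowest p below 0, none was called. NDUFV1, which binds NADH and flavin, ran from 9.7 through 9.9 to 10.54 in Creole pigs and from 9.23 through 9.67 to 10.13 in LW pigs. Its difference was -0.26 (limma, Benjamini-Hochberg adjusted p = 0.0698). NDUFA1 gave -0.10 (adjusted p = 0.0894) and NDUFS4 -0.15 (adjusted p = 0.0962), both accessory subunits. NDUFV1 was called in 5 of 50 alternatives, NDUFS4 in 2 and NDUFA1 in 1. NDUFV1 and NDUFV3 belong to the same part of the complex, and their values had opposite signs.

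In complex V, ATP5J, coupling factor 6 of the peripheral stalk, was 0.26 higher in LW pigs (SE 0.09; limma, Benjamini-Hochberg adjusted p = 0.0443). It ran from 14.1 through 14.39 to 14.8 in Creole pigs and from 14.49 through 14.63 to 14.95 in LW pigs. All 12 LW pigs exceeded the Creole mean, but 8 of them lay within the Creole range. Within slides the difference was 0.34, 0.33, 0.34 and -0.02, and it was called in 31 of 50 alternatives. The gene lies on chromosome 13, 189281429 to 189290234. In F1 pigs the median was 14.77 at TN (14.41 to 14.89) and 14.44 at HS (14.14 to 14.82). The other 14 members of complex V were not called, and the lowest of them was ATP5E, the epsilon subunit, at -0.08.

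**Figure D4:**
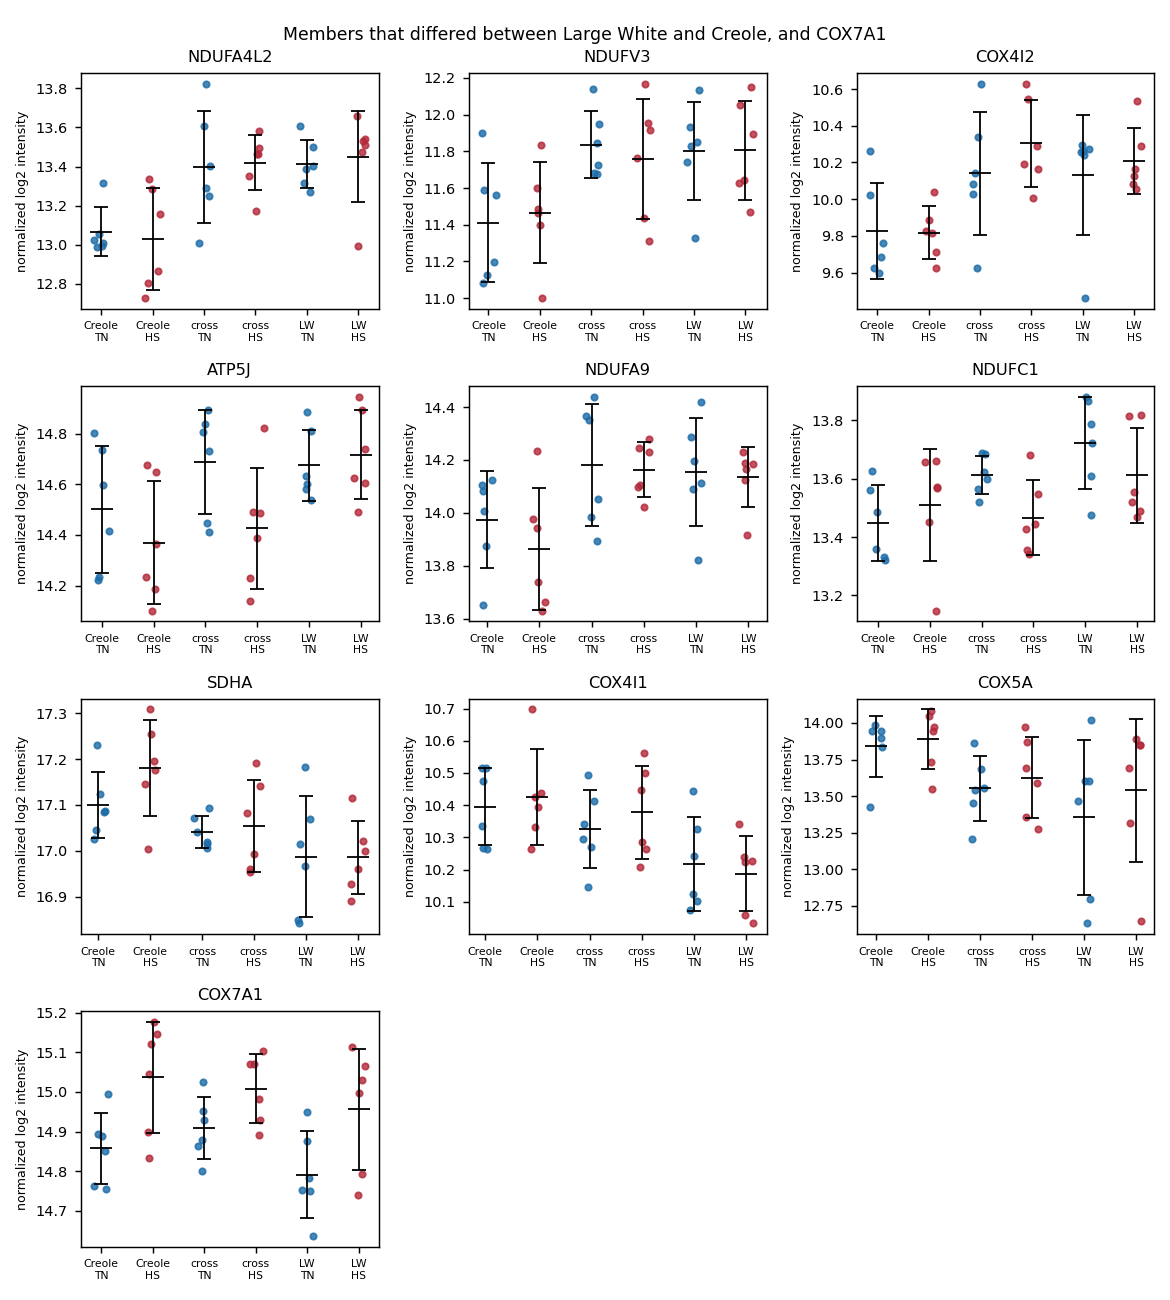
Level of the 9 members called between LW and Creole pigs, and of COX7A1 (y axis, log2 intensity, a scale of its own in each panel), in each of the 36 pigs, with the 6 breed by temperature groups on the x axis (cross, F1 pigs; blue, TN; red, HS). Points are pigs, long lines group means and bars the SD; LW and Creole pigs overlap for each gene, and the 3 called members lower in LW are COX4I1, SDHA and COX5A.

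Markers of other cell types differed between the same breeds, where 11.3% of all probes were called. Of the 7 tested medulla markers 5 were called higher in LW pigs (SCG2 1.03, CHGB 0.53, PNMT 0.38, CYB561 0.17 and CHGA 0.16), with a median of 0.35. Their summed level ran from 19.1 to 19.51 in Creole and from 19.16 to 19.7 in LW pigs. Of the 6 adipocyte markers 5 were called lower (ADIPOQ -1.62, FABP4 -1.33 among them), with a median of -0.75 and a summed level of 11.67 to 13.05 in Creole and 11 to 11.9 in LW pigs. Of the 10 cortex markers 3 were called lower (HSD3B1 -0.78, CYP11B2 -0.37 and STAR -0.34), with a median of -0.06 and a summed level of 20.45 to 20.62 in Creole and 20.34 to 20.5 in LW pigs. All of these markers were above background on every array.

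The remaining marker lists held fewer calls. Of the 5 endothelial markers 1 was called higher (KDR 0.68, list median -0.05), and of the 5 macrophage and leukocyte markers 1 was called lower (CSF1R -0.29, list median 0.03). Of the 4 red blood cell markers tested 0 were called by limma (1 at an unadjusted p under 0.05), and of the 4 striated muscle markers 0 were called (0 at that p). A list of 8 pericyte markers was added after the values of NDUFA4L2 and COX4I2 had been seen, since both are known to be expressed in pericytes, the contractile cells of small vessels. In it RGS5 was called higher (0.84), ABCC9 lower (-0.83) and HIGD1B was at -0.51 (limma, Benjamini-Hochberg adjusted p = 0.258), with a median of -0.07. Its summed level ran from 13.72 to 14.28 in Creole and from 14.13 to 14.48 in LW pigs. The part of these cell types in the members' breed differences was not tested.

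The F1 pigs were set against the mean of both parental breeds to ask whether the cross departs from them. Limma called 0 members, against 0.409% of all probes. At an unadjusted p under 0.05 there were 5 members, 6.67% against 11% of all probes, 4 above and 1 below the parental mean. Of all 75 differences 44 were above 0, while 49.3% of all probes were above 0. The members' median was 0.02 against 0 over all probes. Above 0 with the lowest p were COX4I2 at 0.23 (Benjamini-Hochberg adjusted p = 0.287), UQCRC2, a core protein of complex III, at 0.23 (adjusted p = 0.296), NDUFA4L2 at 0.17 (adjusted p = 0.338) and NDUFA9 at 0.14 (adjusted p = 0.392). Below 0 were SDHD, a membrane anchor of complex II, at -0.08 (adjusted p = 0.397), NDUFB11 at -0.09 (adjusted p = 0.511), ATP5G3, which encodes the rotor ring subunit, at -0.07 (adjusted p = 0.534) and NDUFA1 at -0.05 (adjusted p = 0.661).

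UQCRC2 showed how the cross lay relative to the parents. Its level ran from 13.14 through 13.69 to 13.96 in F1 pigs, from 13.19 through 13.4 to 13.85 in Creole pigs and from 12.98 through 13.32 to 13.78 in LW pigs. The F1 median was the highest, and the 3 ranges overlapped almost entirely. SDHD ran from 14.45 through 14.58 to 14.72 in F1 pigs, from 14.5 through 14.64 to 14.77 in Creole and from 14.45 through 14.68 to 14.85 in LW pigs. There the F1 median was the lowest, again within the range of both parents.

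Genes that build or accompany the complexes were described from lists. Of the mitochondrially encoded subunits, 14 names were tested, with ATP6 under both of its names. In the heat comparison 0 of them were called (0 at an unadjusted p under 0.05), 2 were above and 12 below 0, and the median was -0.05. Between LW and Creole 0 were called (0 at that p), 7 were above and 7 below 0, and the median was -0.01. Against the parental mean F1 pigs had 1 called, while 0.409% of all probes were. This was COX3, a catalytic core subunit of complex IV, at 0.13 (SE 0.03, limma, Benjamini-Hochberg adjusted p = 0.0488). Of the 14, 11 were above 0. At an unadjusted p under 0.05 there were 5, against 11% of all probes, with ND4 (-0.09) below 0 and the others above it. The 6 tested nuclear subunits outside the name pattern and cytochrome c had 0 called in each of these comparisons (0, 2 and 0 at an unadjusted p under 0.05 for heat, LW against Creole and F1).

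Assembly factors, the proteins that put the complexes together, held the one call by heat in these lists. NDUFAF4, a complex I assembly factor, was lower in HS pigs, at -0.41 (SE 0.08; limma, Benjamini-Hochberg adjusted p = 0.0127), as 1 of 5 tested factors of complex I. In LW pigs ACAD9, which also acts in fatty acid oxidation, was lower than in Creole pigs, at -0.14 (adjusted p = 0.0449). Of 15 assembly factors of complexes II to V, 0 were called by heat (2 at an unadjusted p under 0.05). Between the breeds 5 were called lower in LW pigs and 0 higher (5.38% and 5.89% of all probes), with a median of -0.10. These included ATPAF1, which helps to assemble the ATP synthase head, at -0.29 (adjusted p = 0.000817), BCS1L, which inserts the iron-sulphur protein of complex III, at -0.24 (adjusted p = 0.0158), and TACO1, a translational activator of the COX1 subunit, at -0.26 (adjusted p = 0.0169). F1 pigs had 0 called in both lists (0 and 4 at an unadjusted p under 0.05).

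Regulators of mitochondrial biogenesis showed 0 calls by heat among 12 tested (1 at an unadjusted p under 0.05). In LW pigs 3 were called lower than in Creole pigs and 0 higher (5.38% and 5.89% of all probes). These were TFB1M, a methyltransferase of mitochondrial ribosomal RNA, at -0.29 (limma, Benjamini-Hochberg adjusted p = 0.000983), TFAM, which packages and transcribes mitochondrial DNA, at -0.21 (adjusted p = 0.0236), and the nuclear receptor ESRRG at -0.42 (adjusted p = 0.0302). Of 11 tested membrane carriers 1 was called between the breeds, UCP2, an inner membrane carrier, which was 0.48 higher in LW pigs (adjusted p = 0.00872), and 0 were called by heat (1 at an unadjusted p under 0.05). F1 pigs had 0 called among the regulators and the carriers (2 and 3 at that p).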

How the data were processed

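The authors labelled the RNA with Cy3 and extracted spot intensity with Feature Extraction 10.10.1.1, and the submitters' processing notes also name limma. The deposited scanner output gives raw intensity per spot, before any between-array normalization. A deposited table of quantile-normalized log2 values for 45348 probes was used to choose the probe of each member. This table has 0 columns of other samples.

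After removal of control spots and of spots that the software had marked as outliers or non-uniform, median intensities underwent quantile normalization, averaging over the spots of each probe and log2 transformation. Of 60305 probes, 45943 were tested, namely those well above background on 9 or more of the 18 TN arrays or of the 18 HS arrays. A fit of temperature and breed, or of 6 group means, was made in limma 3.58.1 (R 4.3.3) with Benjamini-Hochberg adjustment, and the procedure was tested on simulated data. The precision is limited by the 6 pigs per group. Coordinates are RefSeq's on Sscrofa11.1, whose tables hold 63 of the 76 names.

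All counts and medians cover the 75 tested members, of which 1 is not reported here by name. The members and lists were chosen with earlier results of these data known. Members named are the 4 with the lowest p in each direction by heat and in the cross, the 6 in each direction between LW and Creole, the 4 of the interaction, the tissue forms, and those without a test. From each pathway list, genes past the threshold were named, up to 3 in each direction. Other members and the cell type markers given with values were chosen after their values were seen. Alternatives were another background correction and scale, the deposited table, other filters, averaged probes, slide as a block, other variance settings, array weights, and each slide or pig left out.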

Additional observations from a re-analysis of the deposited data

Results flagged for a closer look

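Over the named members and the median of all members in each pig, 8 of 168 groups of 6 pigs held 1 pig whose gap to the nearest other pig was large relative to the range of the group. Chance gives about 1 in 20, or 8.4. All values are log2 intensity, and pigs are numbered in order of deposition. COX6C was 15.34 in LW TN pig 4 (15.46 to 15.53 in the others). NDUFA8 was 13.28 in LW HS pig 2 (13.1 to 13.16). NDUFA4L2 was 13.32 in Creole TN pig 4 (12.99 to 13.06) and 12.99 in LW HS pig 5 (13.47 to 13.66). COX4I2 was 9.46 in LW TN pig 5, where the others lay between 10.24 and 10.29. NDUFA9 was 13.92 in LW HS pig 6 (14.13 to 14.23), COX5A 13.43 in Creole TN pig 5 (13.83 to 13.99) and NDUFB11 15.82 in F1 TN pig 5 (15.41 to 15.56).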

How the results depend on the processing

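No paired analysis was possible because replicate numbers were given in order of deposition and pair nothing. The count of members called by heat, 0 as reported, was 1 (COX7A1) with normexp background correction, with probes well above background on all arrays, with slide as a block, with a trended robust variance prior and with array weights. With 1 pig left out it ranged from 0 to 1, and was 1 without Creole HS pig 1, Creole TN pig 2, F1 HS pig 3, LW HS pig 5 or LW HS pig 6. The count between the 3 breeds, 6 as reported, was 3 on the 75th percentile scale (9.13% of all probes called), 9 with slide as a block (13.2%), 3, 2, 2 and 3 without slides 1, 2, 3 and 5, and 3 to 6 with 1 pig left out (3 without Creole HS pig 1). The count between LW and Creole, 9 as reported, was 5 on the 75th percentile scale (10.2% of all probes called), 13 with slide as a block (13.7%), 5, 3, 1, 5 and 4 without slides 1 to 5, and 6 to 9 with 1 pig left out. The share of all probes called also fell without a slide, to between 5.57% and 9.24% for LW against Creole and between 4.36% and 8.16% for the 3 breeds. A slide left out also leaves fewer pigs, and the cause of the other shifts was not tested. The counts for F1 against the parents, for the interaction and within each breed were 0 in all 50 alternatives. The median member difference ran from -0.041 to -0.006 by heat, from -0.051 to -0.003 between LW and Creole and from 0.005 to 0.024 for F1 pigs. Of 1400 differences of named members under these alternatives, 1300 kept their direction and their side of the threshold, 82 kept the direction but lost the call, 18 gained it and 0 changed sign. All 82 losses fell on the 9 members called between LW and Creole. Most of the 1400 belonged to differences that were not called and so had no call to lose. Calls were lost in 11 to 14 of 36 omissions of a pig for NDUFC1, NDUFA9, ATP5J and COX5A, and in 0 of them for the other 5 called members. Of those 5, NDUFA4L2 kept its call in all 5 omissions of a slide and the others did not.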

Other observations

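A further 131 tested probes belonged to 40 of the members. In the comparison of LW with Creole, 104 of them had the sign of the member's chosen probe, and 12 probes of 9 genes were called, 9.16% against 11.3% of all probes. Of these genes 6 had a chosen probe that was not called. These, picked for their calls, included COX7C (-0.18, limma, Benjamini-Hochberg adjusted p = 0.0266), NDUFB2 (-0.17, adjusted p = 0.0321), NDUFB8 (-0.23, adjusted p = 0.0212), NDUFB9 (0.18, adjusted p = 0.0309) and UQCRC1 (-0.17, adjusted p = 0.0412). The called NDUFB8 probe had a mean level of only 6.28, and the chosen probe, at 14.81, lay on the other side of 0. The NDUFB8 probes at levels of 13.23 to 14.75 were also above 0 (0.04 to 0.13), and that at 7.91 was at -0.15. In the heat comparison 87 of the 131 had the sign of the chosen probe and 0 were called.

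The mean correlation over pairs, on deviations from the group means of the 36 pigs, was 0.18 for members and 0 for all probes. It was 0.23 in complex I, 0.08 in complex II, 0.21 in complex III, 0.07 in complex IV and 0.22 in complex V, and 0.37 among the mitochondrially encoded names. With slide fitted beside group, a setting chosen after seeing the data, it was 0.20 for the members, 0.25, 0.27, 0.24, 0.07 and 0.25 in complexes I to V, 0.31 among the mitochondrially encoded names and 0 over all probes. Quantile normalization gives each array the same distribution, which holds the mean over all probes near 0, so that value is no baseline. The correlations are descriptions, since all genes of a pig share 1 array. The median SD within groups was 0.12 for the members, from 0.0647 (COX6C) to 0.349 (COX5A). It was 0.14 for 2592 tested probes with mean levels of 13.29 to 15.51, the middle 50% of the members' levels. The members' value also covers those brighter and dimmer than that window.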
